A study of Mus musculus with 6 samples.

Results

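Fat cells store triglyceride in a lipid droplet and release it by lipolysis, and 9 genes of that process were followed here in the ear skin of mice that had lost VEGFR2 from their endothelial cells. The genes were taken by name from the deposited table of read counts, which holds 18422 genes, and all 9 were found there. They are Adrb3, Pnpla2, Abhd5, G0s2, Lipe, Mgll, Aqp7, Gpd1 and Pck1. RNA sequencing of the poly(A) fraction covered 3 ear skin libraries from mice labelled Vegfr2ecko, called ecko here, and 3 from control mice, all at postnatal day 21 and all treated with tamoxifen, the drug that switches on the deletion. The controls were littermates, and Vegfr2 is the older name of Kdr, the gene of the main VEGF-A receptor of endothelial cells. The series describes tamoxifen at 60 μg per day from postnatal day 1 or 200 μg per day from postnatal day 10, and which of these the mice received, the driver of the recombinase and the deleted exon are not given in the sources used here. The labels do not name the animal behind a library, and p-values reflect only how far 3 and 3 samples spread.

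Each library held between 17255416 and 18054696 estimated counts, and 14866 genes were counted deeply enough to be tested, among them all 9 of the lipolysis genes. Levels are given in CPM, the counts of a gene divided by the library's total in units of 1000000, after TMM scaling between libraries, and a change is called where the edgeR quasi-likelihood test gave a Benjamini-Hochberg adjusted p under 0.05 over all genes tested. The targeted gene Kdr had 3.36, 2.05 and 2.35 CPM in the ecko libraries, against 27.4, 29.1 and 33.7 CPM in the controls. Y-linked genes put replicate 3 of both groups apart as female (36 counts in ecko 3 and 24 in control 3, against 3712 to 4390 in the others), so each group had 2 male libraries and 1 female library. The keratinocyte markers Krt5, Krt14, Krt1, Krt10 and Lor together reached 25640 to 28560 CPM in ecko skin and 22920 to 24560 CPM in controls, so genes typical of skin were abundant in every library.

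Lipolysis begins when adrenaline-type signals act on receptors such as the one made by Adrb3 and raise cAMP inside the fat cell. Adipose triglyceride lipase (Pnpla2) removes the first fatty acid from triglyceride, helped by its activator CGI-58 (Abhd5) and restrained by G0s2, after which hormone-sensitive lipase (Lipe) and monoglyceride lipase (Mgll) free the remaining fatty acids and glycerol. Glycerol leaves through the channel aquaporin 7 (Aqp7). Fat cells have little glycerol kinase, and make the glycerol backbone for new triglyceride through glycerol-3-phosphate dehydrogenase (Gpd1) from glucose, or through phosphoenolpyruvate carboxykinase (Pck1) from smaller precursors, a route called glyceroneogenesis.

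RefSeq start-site windows of GRCm38.p6, each from 250 bases before to 50 bases after a start, were at hand for 7 of the 9 genes, 10 windows in all. The windows of Aqp7, Lipe and Pck1, the glycerol channel, the second lipase and the gene with the lowest fold change, are printed with that of Mgll, 1 of the 2 genes with a fold change above 0, so that their letters can be compared. Each is given 5′ to 3′ on the gene's own strand, with capitals for matches to the 8 motifs searched on both strands.
Aqp7, chr4:41047913-41048212, minus strand: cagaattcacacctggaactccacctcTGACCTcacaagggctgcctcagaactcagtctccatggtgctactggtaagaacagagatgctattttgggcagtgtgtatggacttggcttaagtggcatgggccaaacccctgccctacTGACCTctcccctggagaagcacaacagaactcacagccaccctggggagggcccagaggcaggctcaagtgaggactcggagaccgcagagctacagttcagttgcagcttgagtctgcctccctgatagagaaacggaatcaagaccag
Pck1, chr2:173152823-173153122, plus strand: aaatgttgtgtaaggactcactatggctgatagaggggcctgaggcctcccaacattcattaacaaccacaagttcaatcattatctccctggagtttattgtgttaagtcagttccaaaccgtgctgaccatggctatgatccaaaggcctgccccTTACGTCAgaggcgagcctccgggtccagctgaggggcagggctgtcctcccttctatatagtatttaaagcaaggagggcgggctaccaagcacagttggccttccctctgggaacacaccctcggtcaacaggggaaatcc
Lipe, chr7:25395938-25396237, minus strand: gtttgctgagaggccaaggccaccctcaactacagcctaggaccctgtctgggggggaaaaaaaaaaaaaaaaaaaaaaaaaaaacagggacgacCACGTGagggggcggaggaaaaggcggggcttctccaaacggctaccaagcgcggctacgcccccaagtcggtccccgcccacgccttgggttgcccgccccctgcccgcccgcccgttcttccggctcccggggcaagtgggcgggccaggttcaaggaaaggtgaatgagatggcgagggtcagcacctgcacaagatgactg
Mgll, chr6:88724162-88724461, plus strand: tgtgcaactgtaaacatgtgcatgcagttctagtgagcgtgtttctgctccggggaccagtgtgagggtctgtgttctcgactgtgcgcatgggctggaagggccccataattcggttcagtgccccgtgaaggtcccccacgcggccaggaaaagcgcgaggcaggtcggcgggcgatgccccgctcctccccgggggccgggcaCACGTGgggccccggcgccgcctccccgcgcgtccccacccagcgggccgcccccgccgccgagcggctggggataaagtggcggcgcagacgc
The nuclear receptor core site AGGTCA matched this Aqp7 window, on the opposite strand, from bases -223 and -101 counted from the start, and 16.3% of the 32851 RefSeq windows hold at least 1 such match. The Pck1 window holds TTACGTCA from base -93, a form of the cAMP response element that 0.499% of all windows hold, whereas the full element TGACGTCA (1.79% of windows) matched none of the 10. The E-box CACGTG, present in 7.15% of windows, matched both the printed Lipe window (from base -155) and the printed Mgll window (from base -44). The hypoxia response core ACGTG (19.6% of windows) lies inside the E-box. The other Lipe window matched none of the 8 motifs, and the other Mgll window held ACGTG (from base -158) but no E-box. No match was found in the 10 windows to the direct repeat of the nuclear receptor site with 1 base between (0.0396% of windows), the C/EBP consensus TTGCNNAA (10.8%) or the TATA box TATAAA (13.6%), and AGGTCA was also found in the Abhd5 window. These matches describe letters only.

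As a set, the 9 genes leaned towards lower values in ecko skin. Lipe, Aqp7 and Gpd1 fell and none rose, 3 of 9 lower, where 1.08% of all genes tested were called lower and 0.686% higher. All 3 ecko libraries lay below all 3 controls for 6 genes (Pnpla2, G0s2, Lipe, Aqp7, Gpd1 and Pck1), a pattern found in 10.8% of all genes tested. In whole skin, fewer cells of a type that holds an RNA and less of that RNA in each cell cannot be told apart. Which cell types, fat or other, the RNA of these genes came from was not tested. The ranges of the groups overlapped for Adrb3, Abhd5 and Mgll. The median log2 fold change of the 9 was -0.43, beside 0.00 (-0.00183) over all genes tested, with values from -1.04 for Pck1 to 0.29 for Mgll. The 3 calls rested on small margins. The count of members called lower was 0 without ecko 1, ecko 2, ecko 3 or control 2. It was 1 without control 1 and 4 without control 3, and DESeq2 called 5. Over all genes the lower calls, 160 in the main test, were 34 to 70 in the fits that called 0 members. They numbered 108 without control 1, 242 without control 3 and 231 with DESeq2.

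**Figure D1:**
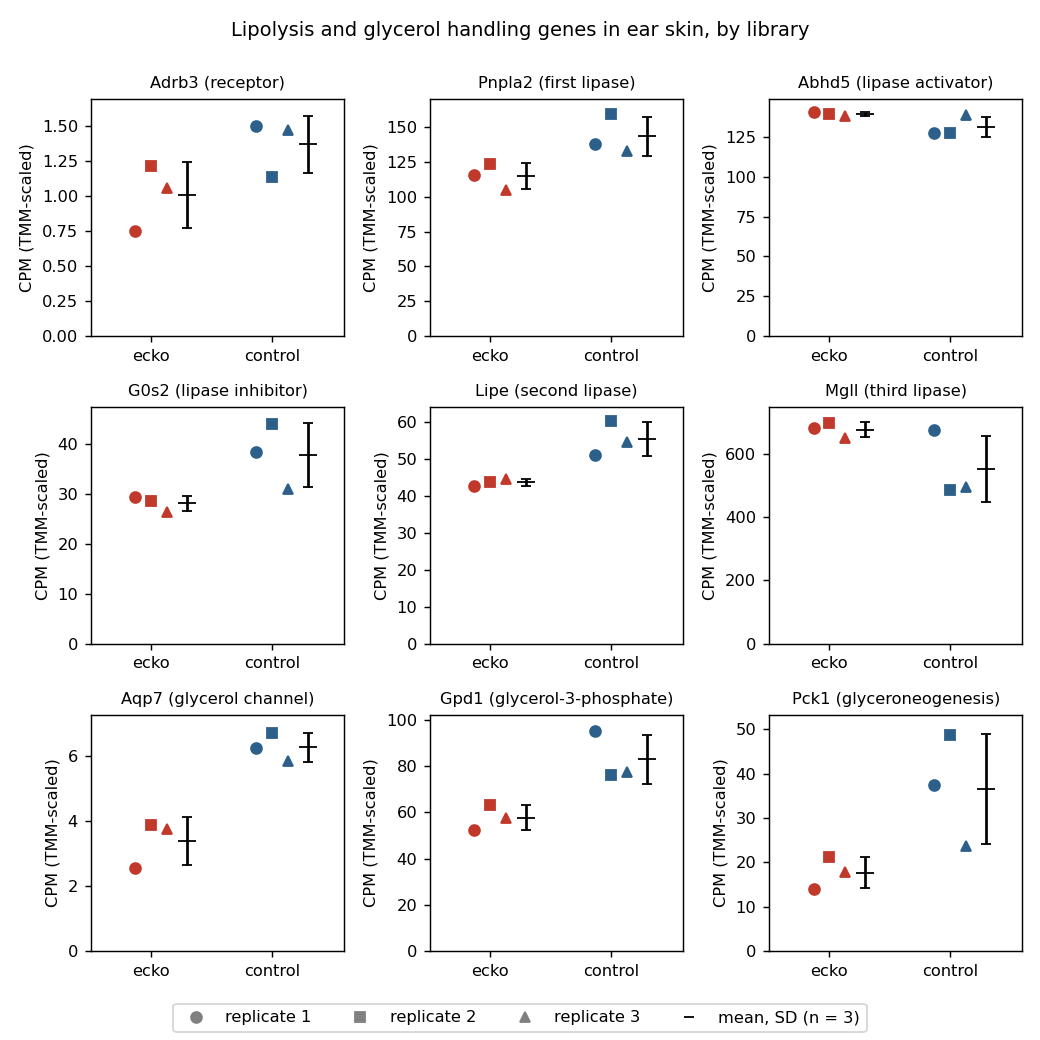
CPM of each gene in each library (y axis, from 0), ecko at left and control at right, with the replicate number as the marker shape and the mean and SD of 3 libraries in black. The ecko points of Pnpla2, G0s2, Lipe, Aqp7, Gpd1 and Pck1 all lie below the control points, and control 1 stands with the ecko libraries for Mgll.

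**Figure D2:**
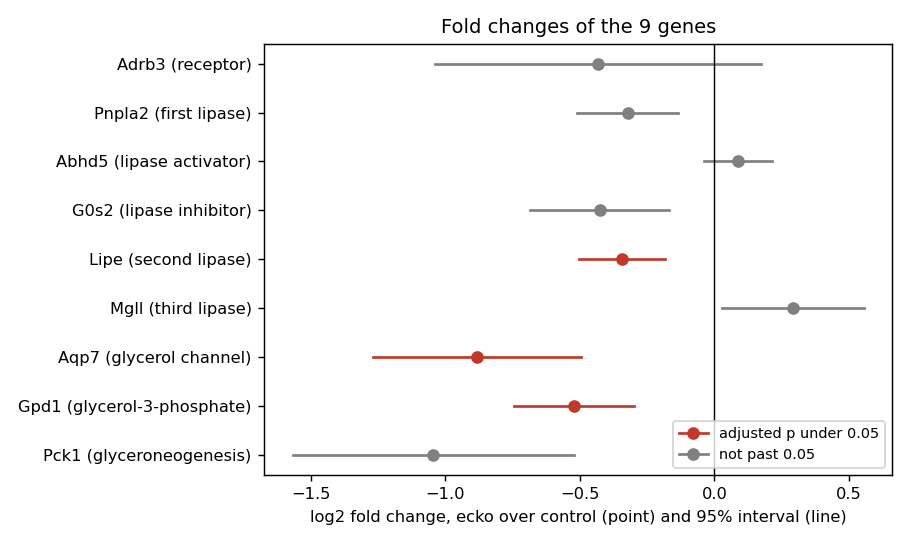
Log2 fold change, ecko over control (x axis), of the 9 genes in the order of the pathway, with 95% intervals that are not adjusted for the number of genes. Lipe, Aqp7 and Gpd1, in red, passed the adjusted p of 0.05, and the points run from -1.04 for Pck1 to 0.29 for Mgll.

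The receptor gene came first and was the most weakly counted. Adrb3 (Entrez 11556, chromosome 8 from 27225776 to 27230845, GRCm38.p6) encodes the β3-adrenergic receptor of fat cells. It had 13, 22 and 19 counts in ecko 1 to 3, against 26, 20 and 26 in controls 1 to 3, and the exact Poisson interval of the lowest value, 6.92 to 22.2 counts, reaches the lowest control. Its log2 fold change was -0.43 (SE 0.27, 95% interval -1.04 to 0.17, edgeR adjusted p = 0.499), so no difference was detectable at this depth. Exons of an antisense gene annotated by GENCODE share 839 bases with Adrb3, and without strand information reads of the 2 cannot be told apart. The antisense partners of the 9 genes were not analysed here.

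At the first lipase step, the lipase and its inhibitor were lower without passing the test, and the activator had a value near 0. Pnpla2 (chromosome 7 from 141455188 to 141460743) had 116, 124 and 105 CPM in ecko 1 to 3, against 138, 159 and 133 CPM in controls 1 to 3. The groups did not overlap, with ecko skin at 80.0% of the control mean (log2 fold change -0.32, SE 0.08, adjusted p by edgeR 0.109). G0s2 (chromosome 1 from 193272160 to 193273188), which makes the peptide that binds and inhibits this lipase, had 29.5, 28.6 and 26.5 CPM in ecko 1 to 3, against 38.4, 44.1 and 31.1 CPM in controls 1 to 3. Control 3, the lowest control, was only slightly above ecko 1 (log2 fold change -0.43, SE 0.12, adjusted p by edgeR 0.120), and without control 3 the gene passed (-0.55, adjusted p = 0.0149). Within the male libraries and between the female ones, the log2 differences were -0.31 and -0.34 for Pnpla2 and -0.50 and -0.23 for G0s2. DESeq2 called both Pnpla2 and G0s2 lower (adjusted p = 0.0291 and 0.0394). Abhd5 (chromosome 9 from 122351616 to 122381524), the activator, had 141, 139 and 138 CPM in ecko 1 to 3 and 127, 128 and 139 CPM in controls 1 to 3. Control 3 was level with the ecko libraries, and the log2 fold change was 0.09 (SE 0.06, 95% interval -0.04 to 0.21, edgeR adjusted p = 0.520). Exons of an antisense gene share 950 bases with Abhd5.

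RNA levels of the first-step genes were compared as ratios within each library, per kilobase of exon. These are ratios in whole skin, and the part of each cell type in them was not tested. G0s2 relative to Pnpla2 was 0.894, 0.812 and 0.888 in ecko 1 to 3, against 0.975, 0.968 and 0.821 in controls 1 to 3, and the groups overlapped (difference of log2 ratios -0.09, exact permutation test over the 6 libraries, two-sided p = 0.30, Benjamini-Hochberg adjusted p = 0.36 over 6 ratios). Abhd5 relative to Pnpla2 was 0.616, 0.571 and 0.667 in ecko 1 to 3, against 0.469, 0.407 and 0.529 in controls 1 to 3, higher in every ecko library. The difference of log2 ratios was 0.41 (exact permutation p = 0.10, the smallest that 3 against 3 libraries allow, adjusted p = 0.30).

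Of the later lipases, Lipe fell and Mgll had a value above 0. Lipe (Entrez 16890, chromosome 7 from 25379527 to 25398486), the gene of hormone-sensitive lipase, had 42.5, 43.8 and 44.4 CPM in ecko 1 to 3, against 51.1, 60.1 and 54.7 CPM in controls 1 to 3. The ecko libraries were close together and below every control, and the level was 43.6 ± 0.981 CPM in ecko skin and 55.3 ± 4.51 CPM in controls (SD, n = 3 each). The log2 fold change was -0.34 with an SE of 0.07 (edgeR quasi-likelihood adjusted p = 0.0477). Within the male libraries the log2 difference was -0.36 and between the female libraries -0.30, and the call ended with a sex term (adjusted p = 0.0563) and in the male libraries alone (adjusted p = 0.139). The call was the nearest of the 3 to the threshold: the adjusted p was 0.191 without ecko 1, 0.178 without ecko 2, 0.124 without ecko 3, 0.136 without control 2 and 0.0551 without control 3, and 0.0415 without control 1. An antisense gene shares 918 exon bases with Lipe.

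Mgll (chromosome 6 from 88724412 to 88828360), the gene of monoglyceride lipase, had the highest level of the 9 per kilobase of exon, at 133 CPM per kb in ecko skin and 109 in controls. It had 683, 697 and 651 CPM in ecko 1 to 3, against 675, 487 and 497 CPM in controls 1 to 3. Control 1 stood among the ecko libraries and controls 2 and 3 well below them (log2 fold change 0.29, SE 0.12, adjusted p by edgeR 0.277). Without control 1 the gene passed as higher, at 0.46 with an adjusted p of 0.0160, so that library decides the call. An antisense gene shares 167 exon bases with Mgll. Per kilobase, Mgll relative to Lipe was 18.4, 18.2 and 16.8 in ecko 1 to 3, against 15.2, 9.32 and 10.5 in controls 1 to 3, and was higher in every ecko library (difference of log2 ratios 0.64, exact permutation p = 0.10, adjusted p = 0.30). Lipe relative to Pnpla2 differed by -0.02 on the log2 scale, with overlapping groups (exact permutation p = 0.80, adjusted p = 0.80).

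The 3 genes that handle glycerol and its phosphate had the lowest fold changes of the 9. Aqp7 (Entrez 11832, chromosome 4 from 41033074 to 41048237) had 44, 70 and 67 counts in ecko 1 to 3, against 108, 118 and 103 in controls 1 to 3, or 2.55, 3.87 and 3.75 CPM against 6.23, 6.72 and 5.84 CPM. Every ecko library was below every control, and ecko skin held 54.1% of the control mean (log2 fold change -0.88, SE 0.17, adjusted p by edgeR 0.0376). The log2 difference was -0.93 within the male libraries and -0.58 between the female ones, and the call ended with a sex term (adjusted p = 0.0520) and in the male libraries alone (adjusted p = 0.107). The adjusted p was 0.106 without ecko 1, 0.0917 without ecko 2, 0.0940 without ecko 3, 0.0794 without control 1 and 0.118 without control 2, and 0.0416 without control 3.

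Gpd1 (Entrez 14555, chromosome 15 from 99717587 to 99725014), which turns a product of glycolysis into glycerol 3-phosphate, had 52.5, 63.3 and 57.5 CPM in ecko 1 to 3, against 95.3, 76.3 and 77.5 CPM in controls 1 to 3. The groups were apart, with control 1 the highest (57.8 ± 5.36 CPM in ecko skin and 83.0 ± 10.6 CPM in controls, SD, n = 3 each). The log2 fold change was -0.52 with an SE of 0.10 (edgeR quasi-likelihood adjusted p = 0.0352). The log2 difference was -0.56 within the male libraries, where the call ended (adjusted p = 0.110), and -0.43 between the female ones. The adjusted p was 0.143 without ecko 1, 0.0721 without ecko 2, 0.124 without ecko 3, 0.0607 without control 1 and 0.0547 without control 2, and 0.0283 without control 3. An antisense gene shares 384 exon bases with Gpd1. Muscle also expresses Gpd1. Of 8 skeletal muscle markers none passed and 7 had log2 fold changes below 0, as had 7504 of the 14866 genes tested. For 6 of the 8, every ecko library lay below every control, beside 10.8% of all genes tested. None of the 8 lacked counts. Their summed level was 5645, 5873 and 5199 CPM in ecko 1 to 3 and 9105, 6717 and 6141 CPM in controls 1 to 3, highest in control 1 as for Gpd1. The part of muscle in the result was not tested.

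Pck1 (Entrez 18534, chromosome 2 from 173153073 to 173159274) had the lowest fold change of the 9 and the highest coefficient of variation among the controls. It had 14.1, 21.2 and 17.8 CPM in ecko 1 to 3, against 37.4, 48.6 and 23.8 CPM in controls 1 to 3. The groups did not overlap, but female control 3 lay nearer to the ecko libraries than to the male controls, and the coefficient of variation was 20.1% in ecko skin and 34.0% in controls. Ecko skin held 48.4% of the control mean (log2 fold change -1.04, SE 0.23), and the gene missed the threshold (edgeR adjusted p = 0.0633). The log2 difference was -1.27 within the male libraries and -0.41 between the female ones. The male libraries alone gave a call (adjusted p = 0.0383), as did the fit without control 3 (adjusted p = 0.00721) and the fit with no low-count filter (adjusted p = 0.0413). Relative to Gpd1, per kilobase, Pck1 was 0.238, 0.295 and 0.272 in ecko 1 to 3 and 0.342, 0.552 and 0.269 in controls 1 to 3, and Aqp7 was 0.0602, 0.0718 and 0.0766 against 0.0736, 0.0984 and 0.0851. Both ratios overlapped between groups (exact permutation p = 0.30 for Pck1 and 0.20 for Aqp7, adjusted p = 0.36 for each), and the log2 difference for Aqp7 to Gpd1 was -0.30, or -0.12 with a pseudocount of 2.

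Per kilobase of exon, the order of the mean levels in ecko skin was Mgll (133 CPM per kb), Pnpla2 (38.0), G0s2 (32.4), Abhd5 (23.4), Gpd1 (19.5), Lipe (7.41), Pck1 (5.17), Aqp7 (1.20) and Adrb3 (0.299). In control skin it was Mgll (109 CPM per kb), Pnpla2 (47.5), G0s2 (43.5), Gpd1 (28.0), Abhd5 (22.0), Pck1 (10.7), Lipe (9.40), Aqp7 (2.21) and Adrb3 (0.406). Abhd5 came before Gpd1 and Lipe before Pck1 in ecko skin, the reverse of controls. Exon length here covers all annotated exons of a gene together, so these orders depend on the annotation. Which transcripts were expressed was not tested. The libraries of neighbouring genes did not overlap in ecko skin, and in controls they overlapped for Pnpla2 and G0s2 and for Pck1 and Lipe.

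Part of the fat-cell markers fell. Of 10 fat-cell genes (Adipoq, Fabp4, Cfd, Retn, Lep, Car3, Pparg, Cebpa, Plin1 and Cidec), 4 fell and none rose, with a median log2 fold change of -0.57, and their summed level was 681 to 771 CPM in ecko skin and 961 to 1029 CPM in controls, with none of them at 0. The log2 fold change was below 0 for 9 of the 10, and the exception was the leptin gene Lep, with 16.6 ± 3.53 CPM in ecko skin and 9.05 ± 5.16 CPM in controls (SD, n = 3 each), a log2 fold change of 0.88 (SE 0.32, adjusted p by edgeR 0.231). The transcription factor gene Cebpa was at -0.07. Each lipolysis gene was therefore also set against the mean log2 level of these 10 genes in its own library. Relative to that mean, Lipe, Pnpla2, G0s2, Gpd1 and Adrb3 differed by -0.07 to 0.13 between groups and overlapped (exact permutation p from 0.40 to 1.00). These small differences moved with the setting: Adrb3 was at 0.27 with a pseudocount of 2, with the groups apart (exact permutation p = 0.10), and Gpd1 at -0.22 without Cfd and Adipoq in the list (exact permutation p = 0.30). Aqp7 was lower relative to fat-cell genes in every ecko library, at -0.30, -0.14 and -0.12 in ecko 1 to 3 against 0.28, 0.17 and 0.11 in controls 1 to 3, around the mean of the 6 libraries. The difference was -0.37, and it was -0.44 with a pseudocount of 0.1, -0.19 with 2 and -0.52 without Cfd and Adipoq in the list. Mgll and Abhd5 were higher in every ecko library, with differences of 0.75 and 0.53. For these 3 genes the exact permutation p was 0.10, the smallest possible, and the adjusted p over 9 genes was 0.30. Pck1 differed by -0.54 with overlapping groups, control 3 lying among the ecko libraries (exact permutation p = 0.20, adjusted p = 0.45). The fat-cell mean itself was lower in every ecko library than in any control. A gene that changed little is therefore placed higher relative to it. Taken alone, Abhd5 had a log2 fold change of 0.09 and Mgll of 0.29, and neither was called. Of the brown fat markers, Ucp1, which defines that tissue, had 0.290, 0.609 and 0.112 CPM in ecko 1 to 3 and 0.231, 0.228 and 0.227 CPM in controls 1 to 3, too low to be tested, and none of the other 4 passed. In the remaining marker lists, all 5 endothelial genes fell, 1 of 6 sebaceous gland genes rose (Awat1), 1 of 5 keratinocyte genes rose (Krt1), and none of 4 macrophage or 4 fibroblast genes passed. The summed level of the sebaceous gland list, another lipid-making tissue of skin, was 1021 to 1110 CPM in ecko skin and 849 to 1062 CPM in controls.

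**Figure D3:**
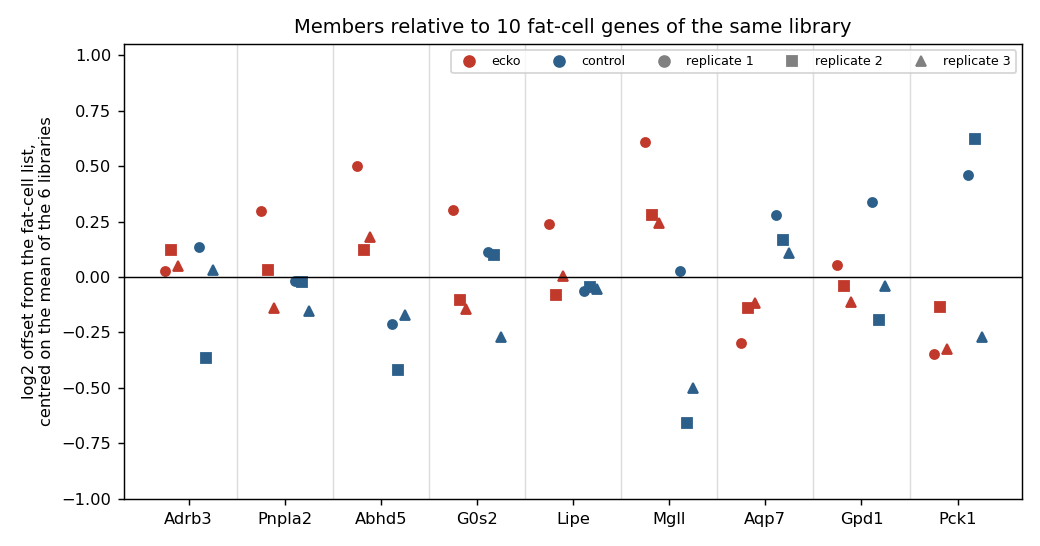
Log2 level of each gene minus the mean log2 level of 10 fat-cell genes in the same library (y axis, centred on the mean of the 6 libraries), ecko in red left of control in blue. Aqp7 lies lower in all ecko libraries and Mgll and Abhd5 higher, while the other 6 genes overlap between groups.

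Genes around the pathway were taken from 5 lists, 57 genes in all, each of which was tested. Only Adra2a passed, and it fell. This gene of the α2A-adrenergic receptor, which restrains cAMP production and lipolysis in fat cells, had 10.2, 10.8 and 9.56 CPM in ecko 1 to 3, against 16.0, 17.5 and 14.5 CPM in controls 1 to 3. Its groups lay well apart (log2 fold change -0.65, SE 0.11, adjusted p by edgeR 0.0178), and the call ended at an adjusted p of 0.0863 without ecko 1, 0.0675 without ecko 2, 0.0689 without ecko 3 and 0.0639 without control 2. Of 57 genes 1 fell and 0 rose, against the 1.08% and 0.686% over all genes, so the share called was near the background. All 3 ecko libraries lay below all 3 controls for 19 of the 57 and above them for 3. Over all genes tested, 10.8% had every ecko library below every control. The share with every ecko library above every control was not counted, so the 3 cannot be set against it. The median of the 57 was -0.06, with 34 values below 0 and 23 above.

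By list, the 21 signalling genes (receptors, cyclases, protein kinase A subunits, phosphodiesterase and insulin signalling) held Adra2a and no other call, with a median of -0.07. Among 11 droplet coat genes none passed and the median was -0.02. The 2 with the smallest p were genes that also stand in the fat-cell list, with adjusted p from edgeR: Plin1, the coat protein that gates lipase access, with 13.4 ± 3.15 CPM in ecko skin and 21.3 ± 3.79 CPM in controls (SD, n = 3 each), a log2 fold change of -0.66 (SE 0.18, adjusted p = 0.118), and Cidec, which fuses droplets (-0.47, SE 0.13, adjusted p = 0.136). Among 8 other lipases none passed (median -0.15). Pnpla3, a relative of Pnpla2, had -0.30 (SE 0.08, edgeR adjusted p = 0.119), and Lpl, which frees fatty acids from lipoproteins at the capillary wall, had -0.26 (SE 0.07, adjusted p = 0.124).

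The 9 further genes of glycerol and glyceroneogenesis had a median of 0.17, with 5 values above 0 and 4 below, and none passed. For 4 of them every ecko library lay below every control, beside 10.8% of all genes tested, and for 0 above. Pcx, the pyruvate carboxylase gene that acts just before Pck1, had 69.2 ± 1.06 CPM in ecko skin and 83.8 ± 7.02 CPM in controls (SD, n = 3 each), a log2 fold change of -0.28 (SE 0.07, adjusted p = 0.0951), and Pck2, the mitochondrial counterpart of Pck1, had -0.29 (SE 0.08, adjusted p = 0.125). The 8 re-esterification genes, which put fatty acids back onto glycerol, had a median of -0.10 and no call. Agpat2 had -0.41 (SE 0.09, edgeR adjusted p = 0.0611), and Dgat2, whose enzyme completes triglyceride, had -0.29 (SE 0.07, adjusted p = 0.0982).

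**Figure D4:**
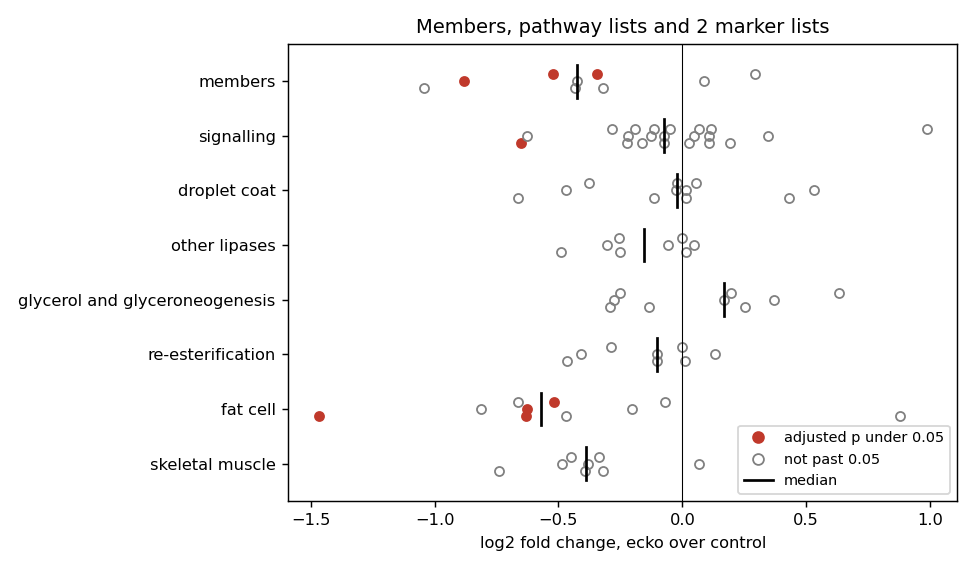
Log2 fold change, ecko over control (x axis), of every tested gene of the 9 lipolysis and glycerol genes, the 5 pathway lists and the fat-cell and skeletal muscle marker lists, with filled red points for adjusted p under 0.05 and a bar at each median. The medians are -0.43 for the 9 genes, between -0.15 and 0.17 for the pathway lists, -0.57 for fat-cell and -0.39 for muscle markers.

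The genes whose pattern over the 6 libraries was most like that of the 3 called genes were found by the root mean square difference of centred log2 levels among 12262 genes with a mean of at least 5 CPM. For Aqp7 they were Cyp2f2 (0.121), the adipokine gene Adipoq (0.122) and the pericyte gene Rgs5 (0.131). For Lipe they were the basement membrane collagen gene Col4a2 (0.0338), the creatine kinase gene Ckb (0.0360) and Pald1 (0.0387). For Gpd1 they were Mfng (0.0445), Capn3 (0.0535) and Abcb9 (0.0611). The smaller a gene's own change, the more genes lie close to it, so these distances are not comparable between the 3 genes.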

How the data were processed

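RNA from snap-frozen ear skin was isolated with Trizol and captured with oligo(dT) beads, per the labels' protocols, which name no strand-marking step. The authors deposited 1 table of unscaled expected counts, with 1 column of read counts for each library per the file headers and with 10.5% of entries not whole. The submitters' processing notes list RSEM 1.3.1, HISAT2 2.2.1, Bowtie2 2.4.5 and GRCm38.p6, without saying which did what. RSEM estimates how to divide reads that match several genes.

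Expected counts were rounded, filtered with filterByExpr by group (minimum count 10; 3556 genes removed) and scaled by TMM. Genotype was the single term of an edgeR quasi-likelihood fit over the 6 libraries (edgeR 4.0.16, R 4.3.3), with p-values adjusted by Benjamini-Hochberg over 14866 genes. The standard error is the log2 fold change divided by the square root of F. Ratios used log2(CPM + 0.5) and exact permutation tests (scipy 1.17.1). Exon lengths were the union of all annotated exons of a gene in GENCODE M21 (GRCm38). Poisson intervals cover counting error only. Of the gene identifiers, 99.7% matched RefSeq, the source of coordinates and start-site windows. The fits were checked on simulated data. No pair of libraries was a duplicate.

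The 9 genes, the 5 pathway lists and the marker lists were chosen with earlier results of these data known. Named were the 9 genes, Kdr, pathway genes that passed or else the 2 with the smallest p per list, and, for the 3 genes of the 9 with the smallest p, the 3 genes most like each. Alternatives were DESeq2 1.42.0, limma-voom (limma 3.58.1), upper-quartile and RLE factors, 2 other low-count filters, a block for replicate number, sex as a term, the male libraries alone, each library left out, an adjusted p of 0.1 and, for ratios, other pseudocounts (0.1 and 2) and a shorter fat-cell list.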

Additional observations from a re-analysis of the deposited data

How the results depend on the processing

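Each of the 9 genes kept the sign of its fold change under all 16 alternatives run on it, while calls moved. Among these, the adjusted p of 0.1 reused the fold changes of the main fit, so it could not change a sign. Members called lower numbered 3 in the main test, 5 with DESeq2 (Aqp7, G0s2, Gpd1, Lipe and Pnpla2), 1 with a sex term (Gpd1), 1 in the male libraries alone (Pck1) and 0 to 4 with 1 library left out, and members called higher 0 to 1 (Mgll, without control 1). With limma-voom Lipe was not called (adjusted p = 0.0565). Other pathway genes called lower numbered 5 with DESeq2 (Adra2a, Agpat2, Cidec, Dgat2 and Plin1), 4 at an adjusted p under 0.1 and 0 to 1 with 1 library left out, and those called higher 0 to 1 (Ffar4, chosen after its values were seen, without control 1). Over all genes the lower calls, 160 in the main test, were 231 with DESeq2, 165 with a sex term and 91 in the male libraries. They were 269 at an adjusted p under 0.1 and 34 to 242 with 1 library left out. The higher calls, 102 in the main test, were 195 with DESeq2, 182 at an adjusted p under 0.1 and 22 to 165 with 1 library left out. The cause of these shifts was not tested, and the reduced fits also had fewer samples.

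The replicate numbers of the titles gave no clear pairing of the libraries. The deviations of same-numbered libraries from their group means correlated at 0.0593, 0.0244 and 0.186, and not every library correlated best with its own number. The highest value, 0.186, belonged to ecko 3 and control 3, the female libraries. With so few libraries, these correlations cannot decide whether the numbers mark pairs. With the replicate number as a block, 1 member was called lower (Pck1, adjusted p = 0.0389, while Aqp7, Lipe and Gpd1 had 0.0591, 0.0606 and 0.0687). In that fit 2 other pathway genes were called lower (Adra2a and Plin1). Over the whole table it called 129 genes lower and 63 higher.

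Differences relative to the fat-cell list that lay near 0 changed sign. Without Cfd and Adipoq in that list they were -0.0192 for Adrb3, -0.0230 for Pnpla2, -0.112 for G0s2 and -0.0410 for Lipe. With 1 library left out, G0s2 ranged from -0.103 to 0.120, Gpd1 from -0.183 to 0.0829 and Adrb3 from -0.0177 to 0.233, and the log2 ratio of Lipe to Pnpla2 from -0.0946 to 0.0325. Those of Mgll, Abhd5, Aqp7 and Pck1 kept their sign in every setting. The 13 to 26 counts of Adrb3 limit what can be read from it.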
